A study of Mus musculus with 42 samples.

Results

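Guidance genes encode the cues and receptors by which axons, vessels and migrating cells are attracted or repelled. The set described here holds the protein-coding genes of the count table whose symbols name a semaphorin, plexin, ephrin, Eph receptor, Slit, Robo, netrin or Unc5 gene, together with the neuropilins *Nrp1* and *Nrp2*. These were 69 of 56953 genes in the table, of which 21664 were protein-coding. They comprised 20 semaphorins, 9 plexins, 2 neuropilins, 5 ephrins A, 3 ephrins B, 9 EphA and 5 EphB receptors, 3 Slits, 4 Robos, 4 netrins and 5 genes named Unc5. The rule went by symbol, so *Unc5cl*, which resembles Unc5 genes in name and part of its sequence but is no netrin receptor, was kept.

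RNA was sequenced from the left and right sides of the microdissected heart field of 21 mouse embryos at E8.5i, when the direction of heart looping can be seen. The groups were 5 wild-type embryos, 11 *Ccdc40* lnks/lnks mutants with rightward looping and 5 *Ccdc40* lnks/lnks mutants with inverted looping. The lnks allele is a nonsense point mutation of *Ccdc40*, a gene that cilia need in order to beat. Each side of an embryo gave 1 library, so there were 42 libraries, and the wild types held 1 female, the rightward mutants 5 and the inverted mutants 2. The rightward mutants were treated as 1 group, because the labels do not divide them. The study did so by their expression, placing some with the wild types (situs solitus) and the rest in a heterotaxy cluster. Results for rightward mutants therefore cover both.

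Semaphorins bind plexins, class 3 semaphorins mostly through a neuropilin, and this repels or attracts the cell that carries the receptor. Ephrins bind Eph receptors on neighboring cells and signal in both directions. Slits act on Robos, and netrins act on DCC, neogenin and the Unc5 receptors, with Unc5 receptors mediating repulsion. In the early heart, semaphorin and neuropilin signals are known for patterning of the outflow tract and vessels, and Slit and Robo for the shape of the heart tube and its septa.

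Library totals ran from 36073684 to 62970327 counts with a median of 43458644. *Ccdc40* stood at 15.2 to 26.5 CPM (counts scaled to the effective library size and to a common total) in wild-type libraries and at 8.83 to 14.8 in mutant libraries, so the groups did not overlap. Among defining markers of the dissected tissue, *Isl1* of the heart field was at 51.8 to 139 CPM. Markers of heart tube muscle were also high although the tube was removed, with *Myh6* at 7.07 to 1510 CPM. The 7 neural tube markers summed to 28.6 to 222 CPM over the groups and sides. Fewer cells of a type and less RNA per cell cannot be told apart in such libraries.

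The sequences just before the canonical transcript starts of 3 genes that stood apart between the sides of inverted embryos are given first, to show what lies there. *Ntn1* was the other gene of this kind. *Unc5b* and *Unc5c* encode related netrin receptors and were higher on the right, while *Sema5b*, a membrane semaphorin, was higher on the left. Each is the 250 bases before the start of the canonical transcript, written 5′ to 3′ on the strand of the gene, at chr10:60667397-60667646 (minus strand), chr3:141170727-141170976 (plus strand) and chr16:35361234-35361483 (plus strand) of GRCm39. Capitals mark matches to GGGCGG on either strand, the GC box that Sp1 factors bind.
Unc5b: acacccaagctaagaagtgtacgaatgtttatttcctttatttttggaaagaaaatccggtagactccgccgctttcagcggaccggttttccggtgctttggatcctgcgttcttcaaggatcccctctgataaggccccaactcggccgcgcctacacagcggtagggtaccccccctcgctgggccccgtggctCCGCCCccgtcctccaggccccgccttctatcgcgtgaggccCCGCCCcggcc
Unc5c: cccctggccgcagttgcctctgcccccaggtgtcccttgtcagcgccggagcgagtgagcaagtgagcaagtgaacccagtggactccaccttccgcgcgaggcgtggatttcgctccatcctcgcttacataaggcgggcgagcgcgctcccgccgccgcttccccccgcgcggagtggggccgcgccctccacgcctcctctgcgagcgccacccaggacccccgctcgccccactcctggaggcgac
Sema5b: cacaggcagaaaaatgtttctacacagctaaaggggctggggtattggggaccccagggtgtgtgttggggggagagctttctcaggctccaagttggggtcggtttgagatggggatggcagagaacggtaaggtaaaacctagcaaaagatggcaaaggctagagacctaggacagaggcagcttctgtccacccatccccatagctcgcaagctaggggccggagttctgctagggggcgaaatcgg

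The *Unc5b* window held 2 GC boxes, and the windows of *Unc5c* and *Sema5b* held 0. GC content was 60.8% in the *Unc5b* window, 71.6% in that of *Unc5c* and 55.6% in that of *Sema5b*, against a median of 62.0% over the 69 members and 53.2% over 21770 protein-coding genes. The *Unc5c* window lay wholly within an exon of the antisense transcript *Gm15688*. The *Sema5b* window lay inside the annotated gene, which begins at 35360820 on chromosome 16, and overlapped no exon. None of the 3 windows held TAATCC (the bicoid-type homeodomain core), CAGACA (a SMAD element), TNAAGTG (the NK-2 homeodomain core) or TATAAA (the TATA box) on either strand. The GC box was in 36.3% of all windows and in 60.9% of the members' windows, while the other motifs, in that order, were in 7%, 15.6%, 10.1% and 11.9% of all windows and in 2.9%, 17.4%, 11.6% and 4.35% of the members' windows. Such matches describe the letters of a window and say nothing of binding.

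On GRCm39, *Unc5b* lies at chr10:60598372-60667396, *Unc5c* at chr3:141170977-141540685, *Ntn1* at chr11:68100190-68291662, *Sema5b* at chr16:35360820-35485102 and *Sema3a* at chr5:13175288-13653578. *Unc5c* overlaps the antisense transcripts *Gm15688* and *Gm15689*, *Unc5a* overlaps *Hk3*, *Plxna4* overlaps 3 antisense transcripts, *Ntn5* overlaps *Sec1*, *Sema3a* overlaps *Gm42680*, *Sema5b* overlaps *Gm5963* and *Unc5d* overlaps *Gm26795*, all on the opposite strand, and *Ntn1* holds *Gm12305* on its own strand. The strand setting of the counting is not given in the sources used here, so reads of these pairs may not have been kept apart.

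Levels were compared between genes as CPM per kb of exon length, averaged over the 42 libraries. Of the 69 members, 9 were over 10, 35 from 1 to 10, 15 from 0.1 to 1 and 10 under 0.1, with a median of 1.6 CPM per kb. Ligands of the ephrin family were among the most abundant, with *Efna5* at 31.74 and *Efnb1* at 18.12, and the lowest of their classes were *Efna3* at 0.472 and *Efnb2* at 4.71 CPM per kb. Among receptors, *Plxnb2*, a receptor of class 4 semaphorins, was at 23.77, *Ephb4*, known for its pairing with ephrin B2 in arteries and veins, at 15.81, and the neuropilins *Nrp1* and *Nrp2* at 13.77 and 10.09 CPM per kb.

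EphA receptors ran from *Epha7* at 8.44 to *Epha6* at 0.00627 CPM per kb, and *Ephb1* was the lowest EphB receptor at 1.3. *Plxnb3* was at 0.00668 CPM per kb and had a count of 0 in 22 libraries, as did *Epha6* in 24. Semaphorins were led by *Sema4c* at 6.94, *Sema6a* at 6.78 and *Sema3a* at 3.6, and the lowest of these classes were *Sema4f* at 0.205, *Sema6b* at 0.0515 and *Sema3g* at 0.542 CPM per kb. The 3 Slits were close together, from *Slit1* at 1.29 to *Slit2* at 2, whereas Robos ran from *Robo3* at 0.0758 to *Robo1* at 4.61. *Ntn1* at 1.6 was the highest netrin and *Ntn4* at 0.0192 the lowest, and *Unc5b* at 3.91 and *Unc5d* at 0.0699 CPM per kb bounded the Unc5 genes.

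Of the 9 members over 10 CPM per kb, *Efna1* had group means from 10.56 on the left to 14.98 on the right of inverted mutants. *Plxnb2* had group means from 23.07 (left, inverted mutants) to 24.43 CPM per kb (right, inverted mutants), and *Efna5* from 29.84 (right, inverted mutants) to 33.94 (left, wild types). *Nrp1* ran from 12.74 on the left to 15.63 on the right of inverted mutants, with the other groups between. *Ntn1* varied more over libraries, with a coefficient of variation of 56.1% against 6.28% for *Plxnb2*, and its group means ran from 1.27 (right) to 2.62 CPM per kb (left) in inverted mutants.

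**Figure D1:**
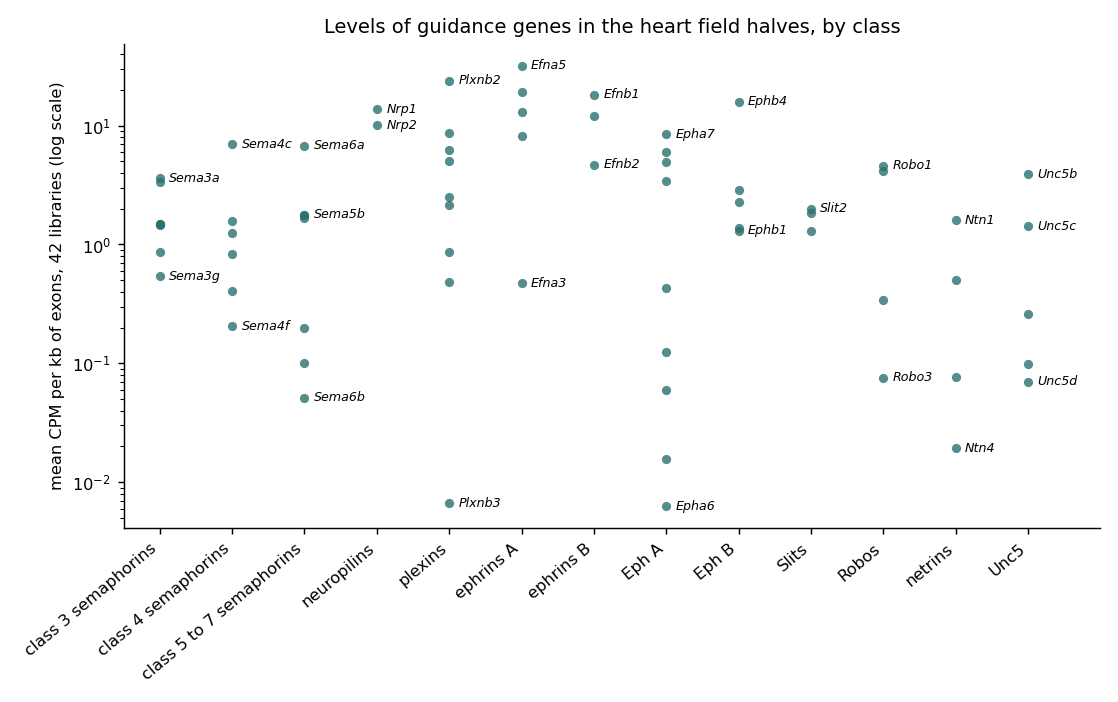
Mean CPM per kb of exons over 42 libraries (log scale) for each of the 69 guidance genes, 1 point per gene, in columns by class. Most ephrins and both neuropilins sit high, with *Efna5* at 31.74, but the ephrin *Efna3* is at 0.472. *Epha6* and *Plxnb3* lie under 0.01 CPM per kb.

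Right and left sides were then compared within each group, to ask which guidance genes are lateralized in normal hearts and in mutants. All 69 members are accounted for here: 66 passed the filter on low counts in each of these comparisons, and *Epha6*, *Plxnb3* and *Ntn4* did not. Changes are log2 fold changes of right over left from edgeR's quasi-likelihood test with the embryo as a block, and adjusted p-values are over all genes tested.

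In wild types no member was called. The count was 0 of 66 by edgeR, where 0% of 23182 genes were called, and 0 by DESeq2, where 0.0863% were called. At an unadjusted p under 0.05 there were 2 members, against 2.76% of all genes. These were *Sema3g*, a class 3 semaphorin of vessels, at 0.62 ± 0.18 (SE) and the receptor *Epha2* at 0.20 ± 0.08, both with an adjusted p of 0.9998 in edgeR. *Sema3a* at -0.22, *Sema4g* at 0.29 and *Efna2* at -0.18 came next. *Sema3a* was lower on the right in 4 of 5 wild types.

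In rightward mutants no member was called either, by edgeR (0.0263% of 22795 genes called) or by DESeq2 (0.14% called). Unadjusted p-values were under 0.05 for 8 members, 3 higher on the right and 5 on the left, against 3.59% of all genes. *Sema3a* was at -0.34 ± 0.09 with an adjusted p of 0.95 in edgeR, and it was lower on the right in 10 of 11 embryos. The low-level receptors *Unc5d* at 0.83 ± 0.26 and *Epha8* at 0.95 ± 0.31, the receptor *Epha3* at -0.52 ± 0.17 and the semaphorin *Sema6d* at -0.13 ± 0.04 came next, each with an adjusted p of 0.9999 in edgeR.

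In inverted mutants both directions held calls. The netrin receptors *Unc5c* and *Unc5b* were higher on the right, by 0.72 ± 0.09 (SE; adjusted p = 0.0101, edgeR) and 0.64 ± 0.09 (adjusted p = 0.0123, edgeR) on the log2 scale. The semaphorin *Sema5b* and the netrin *Ntn1* were higher on the left, at -0.80 ± 0.13 (adjusted p = 0.0211, edgeR) and -0.996 ± 0.183 (adjusted p = 0.0349, edgeR). These were 2 of 66 members in each direction, against 1.72% of 22960 genes called higher on the right and 0.318% higher on the left.

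*Unc5c* encodes a receptor through which netrin repels axons. In the 5 inverted mutants, in the order 2_7, 4_6, 10_3, 18_2 and 32_2, it was at 19.4, 17.3, 18.6, 24.6 and 22.2 CPM on the left and at 37.5, 29.2, 26.3, 45.9 and 30.1 on the right. All right sides were above all left sides. In wild types, in the order 7_1, 8_1, 10_1, 17_7 and 22_4, it was at 20.9, 38, 31.6, 24.6 and 25 CPM on the left and 17.8, 24.9, 17.6, 29.9 and 31.9 on the right, with the right lower in 3 embryos. Rightward mutants ran from 19.9 to 45.6 (median 28.5) on the left and from 13.5 to 33 (median 26.1) on the right, and the sides overlapped.

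*Unc5b* encodes a related receptor, known in endothelial tip cells. In inverted mutants, in the same order of embryos, it was at 25.1, 21.8, 17.8, 21.9 and 14.6 CPM on the left and at 36.6, 35.4, 22.2, 36 and 26.5 on the right. Each embryo was higher on the right, but the lowest right side lay within the range of the left sides. Wild types were at 22, 30.3, 18.3, 20.5 and 15.7 on the left and 23.3, 22.6, 11.4, 25.2 and 35.1 on the right, without a shared direction. Rightward mutants ran from 16.9 to 36.4 (median 25.3) on the left and from 19 to 35.5 (median 23.1) CPM on the right.

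*Ntn1* encodes netrin 1, the ligand of the Unc5 receptors, which the floor plate of the neural tube secretes. In inverted mutants it was at 22.8, 19.3, 9.57, 15.7 and 18.6 CPM on the left and at 9.27, 9.24, 8.78, 7.62 and 6.74 on the right. The left sides were all above the right sides, with a small gap in embryo 10_3. Wild types were at 18.6, 1.15, 6.88, 19.6 and 6.14 on the left and 12.4, 8.7, 21.4, 10.6 and 5.85 on the right, which differed by far more between embryos. Rightward mutants ran from 1.09 to 18.7 (median 7.58) on the left and from 3.79 to 22.6 (median 7.06) CPM on the right.

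*Sema5b* encodes a transmembrane semaphorin that repels axons in the nervous system. It was at 16, 18.7, 26.2, 11.1 and 24.1 CPM on the left of inverted mutants and at 10.3, 10.6, 20, 5.66 and 10.2 on the right. Every embryo was higher on the left, while the ranges of the sides overlapped. Wild types were at 21, 6.29, 7.4, 18.5 and 14.3 on the left and 12.1, 9.81, 27.5, 21.6 and 8.15 on the right. Rightward mutants ran from 6.36 to 22.7 (median 12.2) on the left and from 5.23 to 22.3 (median 11.9) CPM on the right.

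**Figure D2:**
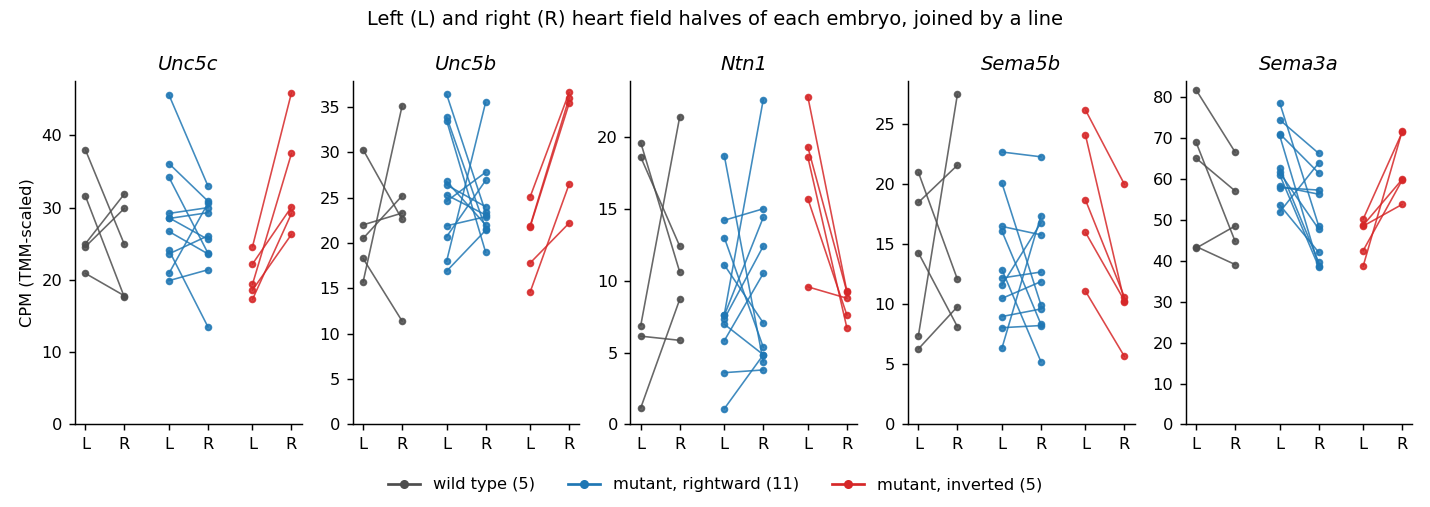
CPM in the left (L) and right (R) sides of each embryo, joined by a line, for 5 guidance genes in wild types (gray), rightward mutants (blue) and inverted mutants (red). Red lines of *Unc5c*, *Unc5b* and *Sema3a* all climb and those of *Ntn1* and *Sema5b* all drop, while gray and blue lines of each gene go both ways.

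DESeq2, the tool of the study, called 11 members in inverted mutants, 5 higher on the right where 5.17% of all genes were called and 6 higher on the left where 2.47% were. Beside the genes above, these were on the right the receptor *Nrp1* (0.31 ± 0.06 in edgeR, adjusted p = 0.0519), its ligand *Sema3a* (0.48 ± 0.10, adjusted p = 0.0527) and *Plxna4*, the plexin that transmits *Sema3a* signals (0.53 ± 0.12, adjusted p = 0.0611). On the left they were the receptor *Unc5a* (-1.24 ± 0.29, adjusted p = 0.0742 in edgeR), the ligands *Slit1* (-0.53 ± 0.13, adjusted p = 0.0808) and *Efnb3* (-0.26 ± 0.06, adjusted p = 0.0896), and *Sema4f* (-1.09 ± 0.47, adjusted p = 0.324). *Sema4f* went left in 3 of 5 embryos, whereas the others went 1 way in 5 of 5. *Sema4f* was at -0.33 in males alone, at -0.66 without the embryo block and from -1.51 to -0.74 with 1 embryo left out. *Slit1* was at -0.35 in males alone.

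Unadjusted p-values were under 0.05 for 8 members on the right and 9 on the left, against 9.29% and 5.81% of all genes. The same 66 members divided evenly by sign, 33 each way, with a median of -0.0089 against -0.005 over all genes. There were 8 members higher on the right in all 5 embryos and 8 higher on the left, of 66 tested, against 8.02% and 7.52% of all genes. In wild types 3 members (*Sema3g*, *Epha2* and *Plxna1*) were right-sided in all 5 embryos and 1 (*Efna2*) left-sided, against 2.86% and 2.31% of all genes. In the 11 rightward mutants there were 0 each way, against 0.0263% and 0.0965% of all genes.

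By class, the edgeR calls in inverted mutants were among Unc5 genes (2 of 5, right), netrins (1 of 3 tested, left) and semaphorins (1 of 20, left). Of the other members with low p-values, *Unc5cl* was at 0.70 ± 0.25 and *Efna1*, an ephrin A ligand, at 0.49 ± 0.14, and both were right-sided in 5 of 5 embryos. *Ntn5* at -1.70 ± 0.56, a netrin with at most 30 counts in any library, was left-sided in 5 of 5 embryos. The other members with an unadjusted p under 0.05 were *Plxnc1* at -0.40, *Unc5d* at -0.80 and the Slit receptor *Robo2* at 0.13, and none of these 6 passed the adjusted threshold in edgeR or DESeq2. Of 13 Eph receptors tested, 0 were called by edgeR or DESeq2 and 0 had an unadjusted p under 0.05. Of 8 ephrins 0 were called by edgeR, 1 by DESeq2 (*Efnb3*), and 2 had an unadjusted p under 0.05.

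**Figure D3:**
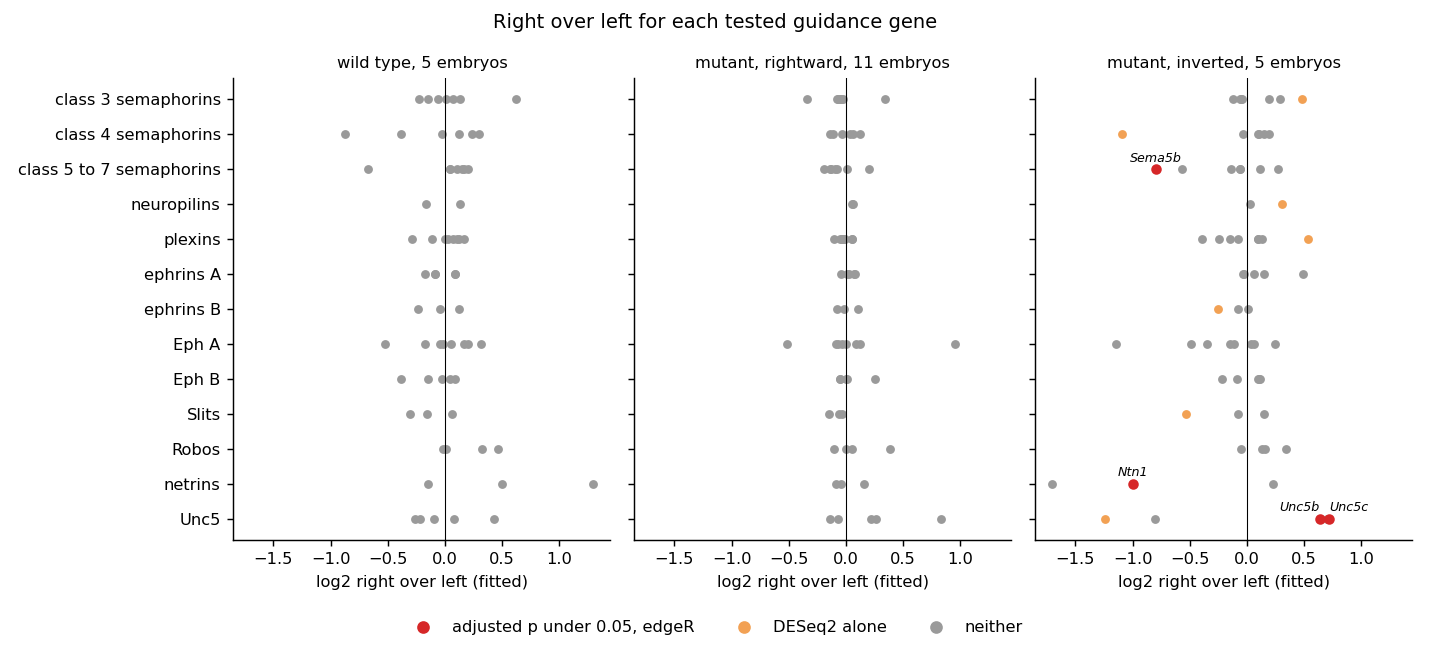
Fitted log2 right over left for each tested guidance gene in the 3 groups, in rows by class, with red for an adjusted p under 0.05 in edgeR, orange for DESeq2 alone and gray for neither. Colored points are in the inverted mutants alone, with *Unc5b* and *Unc5c* on the right of 0 and *Ntn1* and *Sema5b* on the left.

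Several of these calls did not hold with 1 of the 5 pairs left out. Leaving out each inverted embryo in turn gave 1 to 6 called members, and *Unc5c* passed in 5 of 5 such fits, *Unc5b* and *Sema5b* in 2 each and *Ntn1* in 1. *Unc5b* and *Sema5b* did not pass without 4_6, 18_2 or 32_2, and *Ntn1* did not pass without any of these or without 2_7. The count was 1 without 4_6, without 18_2 and without 32_2. The log2 fold changes kept their direction in these fits. They ran from 0.66 to 0.78 for *Unc5c*, 0.58 to 0.71 for *Unc5b*, -0.91 to -0.69 for *Sema5b* and -1.21 to -0.88 for *Ntn1*. In the 3 male pairs alone 0 members were called, a fit of all libraries called 1 and a fit without the embryo block 3. With 5 pairs the exact two-sided sign-flip test of a single gene cannot go below 0.0625, which is the value it gave for all 4 called members.

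Markers of other tissues moved along with these genes in inverted mutants. Of 7 heart tube muscle markers, 6 were called higher on the right (*Ttn* 1.27, *Actc1* 1.12, *Nkx2-5* 1.06, *Myh6* 1.01, *Tnnt2* 1.00 and *Myl7* 0.88 on the log2 scale), and *Nppa* was lower on the right without a call. The 7 markers summed to 1200 to 2300 CPM on the left and 2300 to 4770 on the right. Of 7 neural tube markers all were lower on the right, 2 of them called by edgeR (*Pax6* -2.02 and *Nkx6-1* -1.45) and 7 by DESeq2, and their sum ran from 80.7 to 130 CPM on the left and from 45.7 to 94.7 on the right. No marker of either list was at 0 in every library, and *Sox1* and *Olig3* were at 0 in 6 and 4 libraries. In wild types the sums ran from 1760 to 4440 CPM on the left and 831 to 3410 on the right for muscle, and from 39 to 128 and 43.6 to 222 for neural tube. In rightward mutants they ran from 896 to 4710 and 233 to 5100 for muscle, and from 28.6 to 99.9 and 34.4 to 119 for neural tube. In inverted mutants 3 of 8 heart field markers (*Mef2c*, *Wnt2* and *Osr1*) and 2 of 5 venous pole markers (*Tbx5* and *Shox2*) were also called higher on the right, while 1 marker of each list was lower there. Paraxial mesoderm markers had a median of -0.7 with 0 of 7 called by edgeR, 4 with an unadjusted p under 0.05 and 2 called by DESeq2. Endothelial markers summed to 373 to 453 CPM on the left and 422 to 490 on the right, higher on the right in 5 of 5 embryos (mean log2 ratio 0.19 ± 0.06, SD), with 0 of 8 called by edgeR, 3 with an unadjusted p under 0.05 and 2 called by DESeq2 (*Tek* 0.45 and *Cdh5* 0.26). In wild types this sum ran from 392 to 491 on the left and 374 to 458 on the right, and in rightward mutants from 373 to 488 and 374 to 477. Of 7 neural crest markers 0 were called by edgeR, and DESeq2 called 2 lower on the right (*Ngfr* -0.29 and *Ets1* -0.25), which also had an unadjusted p under 0.05 in edgeR. Foregut endoderm markers had a median of 0.22, with 0 of 7 called by edgeR, 2 at an unadjusted p under 0.05 and 1 called by DESeq2, and their sum was higher on the right in 4 of 5 embryos. No blood or yolk sac endoderm marker was called by edgeR or DESeq2, and 0 had an unadjusted p under 0.05.

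Some of these genes varied with the markers across the 11 rightward mutants, in which no member was called between the sides. The log2 ratio of right to left per embryo was compared with that of the summed markers for 12 members and 2 marker lists, 24 relations in all, chosen after the values were seen. The lists were heart tube muscle and neural tube. Markers of the other tissues were not correlated, so these relations do not single out muscle or neural tube. *Unc5c* rose with heart tube muscle (Pearson's r = 0.88, permutation p = 0.00073, adjusted p = 0.0146; Spearman's rho = 0.81, permutation p = 0.00363, adjusted p = 0.023; n = 11), and without the 2 embryos farthest from the median r was 0.61. *Unc5b* did likewise (r = 0.82, permutation p = 0.00223, adjusted p = 0.0178; rho = 0.83, permutation p = 0.00265, adjusted p = 0.023), with r = 0.64 without the 2 embryos. *Plxna4* also followed muscle (r = 0.74, permutation p = 0.00389, adjusted p = 0.019; rho = 0.81, permutation p = 0.00384, adjusted p = 0.023), with r = 0.68 without them.

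*Ntn1* went against muscle (r = -0.78, permutation p = 0.00401, adjusted p = 0.019; rho = -0.82, permutation p = 0.00297, adjusted p = 0.023; n = 11), and r was -0.76 without the 2 farthest embryos. With neural tube markers it gave r = 0.60 (permutation p = 0.0486, adjusted p = 0.13) and rho = 0.52 (permutation p = 0.108, adjusted p = 0.201). *Sema5b* followed neural tube markers by r = 0.87 (permutation p = 0.00122, adjusted p = 0.0146), but its rho of 0.62 did not pass (permutation p = 0.0477, adjusted p = 0.143), and r was 0.72 without the 2 farthest embryos. *Efnb3* followed them by both measures (r = 0.79, permutation p = 0.00474, adjusted p = 0.019; rho = 0.79, permutation p = 0.00548, adjusted p = 0.0263), with r = 0.62 without the 2.

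*Sema3a* followed muscle by r = 0.72 (permutation p = 0.0107, adjusted p = 0.0365), yet rho was 0.58 (permutation p = 0.0663, adjusted p = 0.167) and r fell to 0.24 without embryos 2_2 and 19_4, so the relation rests on those 2. *Nrp1* gave r = 0.04 with muscle (permutation p = 0.914, adjusted p = 0.952) and r = -0.49 with neural tube (permutation p = 0.123, adjusted p = 0.241). None of the relations of *Unc5a*, *Unc5d*, *Slit1* and *Sema4f* with either list passed after adjustment. No correlation was computed within the wild types or the inverted mutants, with 5 embryos each. Among the inverted mutants the called genes lay differently beside the markers. Embryo 32_2 had the highest log2 ratio of muscle (1.42) and the lowest of neural tube (-1.43), with the highest *Unc5b* (0.85) and the lowest *Ntn1* (-1.46) and *Sema5b* (-1.23), but also the lowest *Unc5c* (0.44). Embryo 10_3 had the neural tube ratio nearest to 0 (-0.35), as well as the *Ntn1* (-0.12) and *Sema5b* (-0.39) ratios nearest to 0 and the lowest *Unc5b* (0.32). Embryo 2_7 had the lowest muscle ratio (0.67) and the highest *Unc5c* (0.94). Among wild types 10_1 was lowest in both (-1.68 for muscle and -0.84 for *Unc5c*) and 22_4 highest in both (0.94 and 0.35). The part of these tissues in the right-left differences of inverted mutants was not tested.

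**Figure D4:**
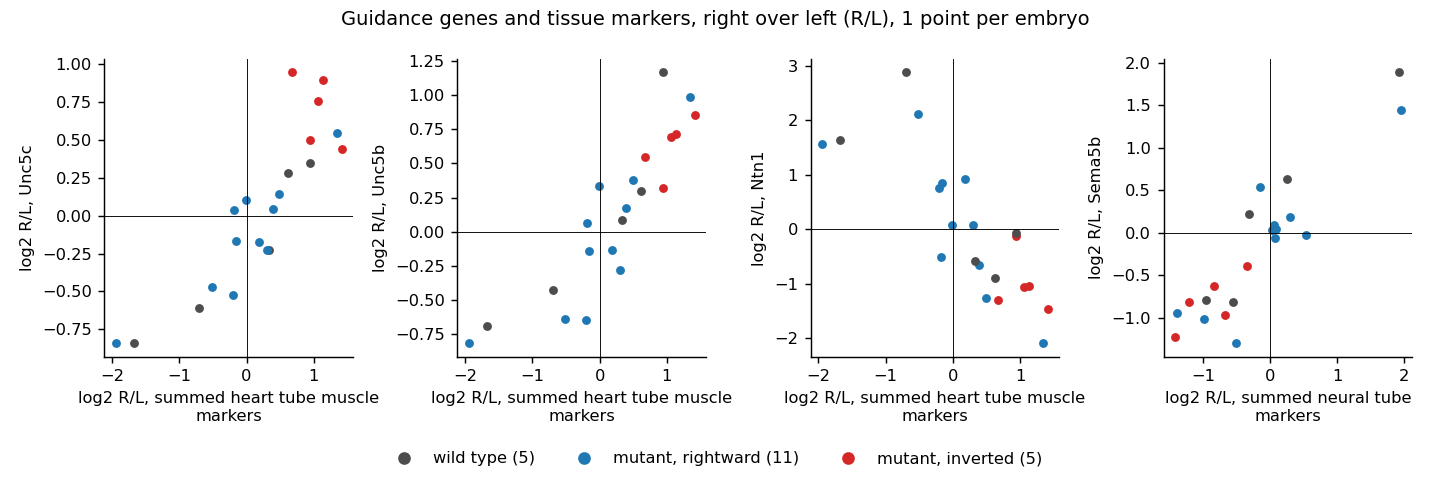
Log2 right over left (R/L) per embryo of 4 guidance genes against that of the summed heart tube muscle or neural tube markers, 1 point per embryo, with wild types in gray, rightward mutants in blue and inverted mutants in red. Among rightward mutants *Unc5c* and *Unc5b* climb and *Ntn1* drops along the muscle ratio, and *Sema5b* climbs along the neural tube ratio. Inverted mutants lie at muscle ratios from 0.67 to 1.42, where the embryo with the highest muscle ratio has the highest *Unc5b* and the lowest *Unc5c*.

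The difference of asymmetry between groups was tested itself, as an interaction term (side by group) fitted over the 42 libraries together, with 69 members among 26335 genes. These comparisons share embryos with each other and with the tests above. *Sema3a*, the secreted class 3 semaphorin that acts through *Nrp1*, differed between inverted and rightward mutants, with a difference in log2 right over left of 0.81 ± 0.16 (adjusted p = 0.0257, edgeR). It was the 1 member called, where 0.311% of all genes were.

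*Sema3a* was at 38.7, 42.5, 48.5, 50.2 and 48.7 CPM on the left of inverted mutants and at 71.7, 59.7, 53.8, 71.4 and 59.9 on the right, with no overlap of the sides. In wild types it was at 43.5, 69, 65.1, 43.1 and 81.8 on the left and 39.1, 44.8, 57.1, 48.5 and 66.6 on the right. Rightward mutants ran from 51.9 to 78.7 (median 61.6) on the left and from 38.6 to 66.3 (median 48.6) CPM on the right. The log2 ratio was 0.47 ± 0.28 (SD, n = 5) in inverted mutants, -0.34 ± 0.35 (n = 11) in rightward mutants and -0.22 ± 0.29 (n = 5) in wild types. It differed between inverted and rightward mutants in the exact two-sided permutation test (p = 0.00114), although 1 rightward mutant, 19_4, lay within the range of the inverted ones. The call passed in 14 of 21 fits that left out 1 embryo. It was lost without 2_7, 3_7, 4_6, 17_1, 18_1, 18_2 or 32_2, and was weakest without 18_2 (adjusted p = 0.1, edgeR), with differences from 0.70 to 0.89 over the 21 fits. In males alone it did not pass (0.87, adjusted p = 0.158, edgeR). Heart tube muscle markers differed in the same comparison by a median of 1.07, with 0 of 7 called by edgeR and 6 at an unadjusted p under 0.05, and neural tube markers by a median of -1.26, with 0 called by edgeR and 1 at an unadjusted p under 0.05. DESeq2 called 0 of either list. Heart field markers had a median of 0.46 (3 of 8 at an unadjusted p under 0.05, 1 called by DESeq2), venous pole markers of 0.57 (3 of 5, 0 by DESeq2), paraxial mesoderm markers of -0.83 (3 of 7, 1 by DESeq2), endothelial markers of 0.11 (2 of 8, 1 by DESeq2), foregut endoderm markers of 0.15 (2 of 7, 0 by DESeq2) and neural crest markers of 0.11 (1 of 7, 0 by DESeq2), with 0 called by edgeR in each. The part of these tissues in the result was not tested, since the correlation above covers the rightward mutants alone.

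Other members did not pass in the same comparison. Leaving out 1 embryo gave 0 to 3 called members, with 3 without 10_1, 19_4 or 22_4. *Unc5c* differed by 0.85 ± 0.20 and *Unc5a* by -1.53 ± 0.35 (both with an adjusted p of 0.0615 in edgeR), *Unc5d* by -1.65 ± 0.47 (0.154) and *Unc5b* by 0.69 ± 0.26 (0.321). DESeq2 called *Sema3a*, *Unc5c*, *Unc5a* and *Unc5d*, where 1.73% of all genes were called. Unadjusted p-values were under 0.05 for 10 members, 6 up and 4 down, against 10.5% of all genes. *Unc5a*, which was low at 0.262 CPM per kb, was at 1.52, 3.12, 1.8, 2.33 and 1.65 CPM on the left of inverted mutants and at 1.14, 1.12, 0.54, 0.503 and 1.09 on the right, with no overlap. In rightward mutants its left sides ran from 0.327 to 1.78 and its right sides from 0.761 to 2.14 CPM. Exact permutation of the log2 ratios gave p = 0.000687 for *Unc5c*, p = 0.000458 for *Unc5a*, p = 0.00298 for *Unc5d* and p = 0.016 for *Unc5b*.

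*Unc5d*, the lowest Unc5 receptor, was at 0.635, 0.605, 1.07, 1.48 and 0.676 CPM on the left of inverted mutants and at 0.671, 0.391, 0.417, 0.647 and 0.333 on the right. Its log2 ratio was -0.77 ± 0.54 (n = 5) there against 0.82 ± 0.88 (n = 11) in rightward mutants, in which 8 of 11 embryos were higher on the right. *Unc5b* and *Unc5c* on the one hand and *Unc5a* and *Unc5d* on the other thus had opposite signs in inverted mutants. That difference between receptors was not tested, and of these 4 edgeR called *Unc5b* and *Unc5c* between the sides of inverted mutants and DESeq2 also *Unc5a*.

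**Figure D5:**
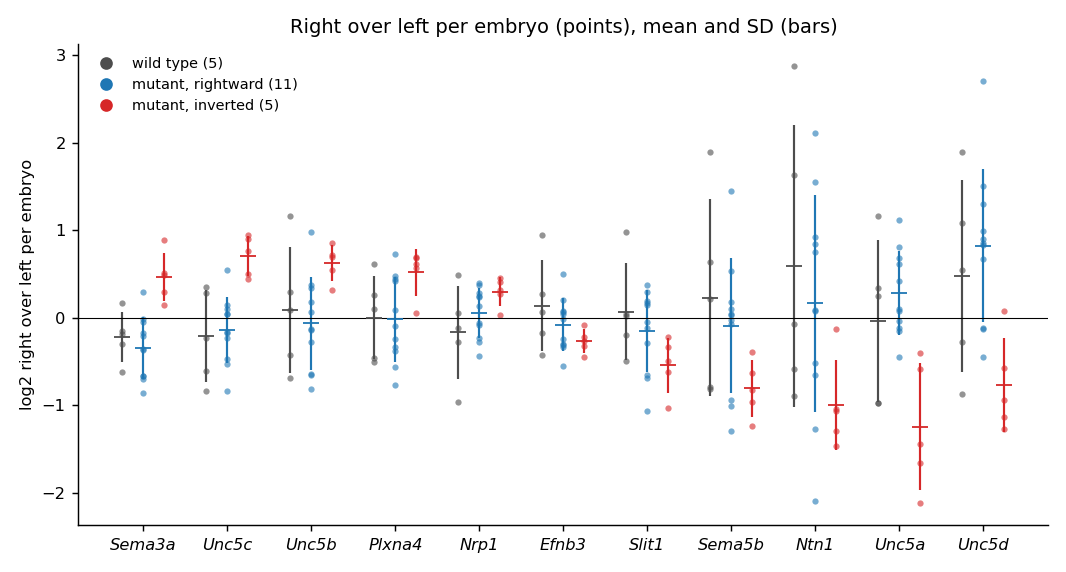
Log2 right over left per embryo (points) with the group mean and SD (bars) for 11 guidance genes in wild types (gray), rightward mutants (blue) and inverted mutants (red). The red means of *Sema3a*, *Unc5c*, *Unc5b*, *Plxna4* and *Nrp1* lie above 0 and those of the other 6 genes below it, and the wild-type spread of *Ntn1* (SD 1.61) is the widest.

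Between inverted mutants and wild types no member was called by edgeR, where 0.513% of all genes were, and 14 had an unadjusted p under 0.05, against 13.6%. DESeq2 called *Unc5c* and *Sema3a*, where 3.46% were called. Leaving out 1 embryo at a time gave 0 to 3 called members in edgeR, with 1 without 2_2 or 19_4, 2 without 17_7 and 3 without 22_4. *Unc5c* differed by 0.92 ± 0.23 (adjusted p = 0.0703, edgeR), *Sema3a* by 0.69 ± 0.19 (0.1) and *Ntn5* by -3.04 ± 0.90 (0.122). *Plxna1*, a receptor of class 3 semaphorins, at -0.29 ± 0.10 and *Sema6a* at -0.31 ± 0.11 followed (0.19 each). The ratios of *Unc5c* did not overlap between the 5 inverted mutants and the 5 wild types (exact permutation p = 0.00794, the smallest that 5 against 5 allow). In the comparison of inverted mutants with wild types heart tube muscle markers differed by a median of 1.12, with 0 of 7 called and 5 at an unadjusted p under 0.05 in edgeR, and neural tube markers by a median of -1.25, with 7 of 7 negative, 0 called and 2 at an unadjusted p under 0.05. DESeq2 called 0 of either list. The endothelial marker *Tek* (0.90, adjusted p = 0.0165) and the paraxial mesoderm marker *Tcf15* (-2.39, adjusted p = 0.03) were called by edgeR. Yolk sac endoderm markers had a median of 1.73 (1 of 5 at an unadjusted p under 0.05) and venous pole markers of 0.65 (2 of 5). Heart field markers had a median of 0.465 (2 of 8) and foregut endoderm markers of 0.315 (1 of 7). Blood and neural crest markers had medians of -0.368 and -0.383, with 0 at an unadjusted p under 0.05. The part of these tissues in the result was not tested. Between rightward mutants and wild types no member was called, by edgeR (0% of all genes) or DESeq2 (0%), and 2 had an unadjusted p under 0.05, against 3.04%. These were *Plxna1* at -0.22 ± 0.08 and *Sema5a* at -0.31 ± 0.15, followed by *Sema4d* at -0.35, *Slit3* at 0.27 and *Ntn5* at -1.40.

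The level of each member was compared between groups on each side, with sex in the model, and no member was called in any of the 4 comparisons by edgeR or DESeq2. On the left, rightward mutants against wild types, 67 members were tested and 4 had an unadjusted p under 0.05, all higher in mutants, against 5.02% of all genes, while 0.0242% of all genes were called by edgeR and 0.0805% by DESeq2. *Plxnb1*, a semaphorin 4D receptor, was at 0.33 ± 0.09 (adjusted p = 0.802, edgeR), followed by *Sema5a* at 0.29, *Epha2* at 0.44, *Sema6a* at 0.23 and *Sema4d* at 0.31. On the right, 2 of 66 members had an unadjusted p under 0.05, against 3.28% of all genes (0.0121% called by edgeR and 0.0241% by DESeq2). They were *Plxnb1* at 0.18 ± 0.07 and *Plxna1* at -0.20 ± 0.08, and *Nrp2* at -0.25, *Sema3e* at -0.26 and *Sema3b* at 0.20 followed.

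Inverted and rightward mutants were compared in the same way. On the left 8 of 67 members had an unadjusted p under 0.05, 2 higher and 6 lower in inverted mutants, against 7.89% of all genes, with 0.0121% called by edgeR and 0.419% by DESeq2. *Sema3a* was at -0.47 ± 0.13 (adjusted p = 0.397, edgeR; 0.0519, DESeq2), *Unc5c* at -0.47 ± 0.16, *Plxna4* at -0.43 ± 0.15, *Epha3* at -0.61 ± 0.22 and *Plxnc1* at 0.51 ± 0.21. On the right 6 of 66 had an unadjusted p under 0.05, against 4.26% of all genes, with 0.00805% called by edgeR and 0.0724% by DESeq2. *Unc5a* was at -0.75 ± 0.25, *Sema3a* at 0.34 ± 0.13, *Unc5c* at 0.39 ± 0.17, *Unc5d* at -0.65 ± 0.30 and *Unc5b* at 0.37 ± 0.18 there, each with an adjusted p of 0.9996 in edgeR.

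A list of 40 genes that work with these cues, such as co-receptors and proteins that pass the signal to the cytoskeleton, was counted alongside. In inverted mutants edgeR called 3 of 40 higher on the right and 2 on the left, against 1.72% and 0.318% of all genes. *Mical2*, an oxidase that acts on actin filaments, was at 1.43 ± 0.13 (adjusted p = 0.00329, edgeR), *Dpysl3*, a protein of the family that relays semaphorin signals to microtubules, at 0.51 ± 0.05 (0.00454) and *Vasp*, which promotes actin growth, at 0.29 ± 0.05 (0.024). *Rgma*, a ligand of neogenin, was at -0.56 ± 0.06 (0.0063) and *Ngef*, an exchange factor that acts beneath EphA receptors, at -1.19 ± 0.21 (0.0324). *Dcc*, the attractive netrin receptor, was at -1.25 ± 0.30 and did not pass (0.0849). DESeq2 called 5 higher on the right and 7 on the left, against 5.17% and 2.47%.

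Partners also differed in the tests of asymmetry between groups. *Dpysl3* differed between inverted and rightward mutants by 0.71 ± 0.13 (adjusted p = 0.0122, edgeR), the 1 partner called there, against 0.311% of all genes. Between inverted mutants and wild types 3 were called, against 0.513% of all genes, namely *Mical2* by 1.84 ± 0.37 (0.0246), *Dpysl3* by 0.66 ± 0.15 (0.0426) and *Vasp* by 0.34 ± 0.08 (0.0468), beside the differences of muscle, neural tube, endothelial and paraxial markers in that comparison given above. DESeq2 called 4 partners in each of these comparisons, where 1.73% and 3.46% of all genes were called. In the other 7 comparisons edgeR called 0 partners, where 1 to 8 had an unadjusted p under 0.05. DESeq2 called 1 of them, on the left between inverted and rightward mutants.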

How the data were processed

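RNA of 42 heart field sides from 21 embryos was sequenced in pairs of reads after poly-A selection with a low-input kit. The authors trimmed adapters, removed duplicates, aligned reads to GRCm39 with STAR and deposited raw counts per gene made with featureCounts (Subread 2.0.6). Other versions, the annotation release and the strand setting are not given in the sources used here. Library totals were 36073684 to 62970327 counts. Embryos were separate biological samples, and groups came from the labels.

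Counts were normalized by TMM and tested with edgeR 4.0.16 (quasi-likelihood) in R 4.3.3, after filterByExpr with a minimum count of 5 and a minimum total of 10, with Benjamini-Hochberg adjustment over all genes tested at a threshold of 0.05. Right against left and the differences of asymmetry had the embryo as a block, which the labels give as the source of both sides. Residuals of the sides of an embryo correlated by -0.0866 to 0.745 (median 0.302, over 2000 variable genes). Levels per side had sex as a covariate. Standard errors were the absolute log2 fold change over the root of F. Log2 ratios per embryo used a prior count of 2, with exact permutation and sign-flip tests in R. P-values of the correlations came from 100000 random permutations, adjusted over the 24 relations, with ranks from SciPy 1.17.1. Levels per kb used GENCODE exon lengths. DESeq2 1.42.0 was the main alternative, and the others were the normalization, the filter, a fit of all libraries, males alone, no embryo block, and each embryo left out. A fit with newer edgeR dispersions was chosen after seeing the data. The scripts were tested on simulated data with 200 changed genes.

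Named with values were members past the threshold in either tool, the 5 with the lowest p in each comparison, and the highest and lowest of each class. *Efna1*, *Robo2* and *Unc5cl* fall outside this rule and were named after their values were seen. The members and lists were chosen with earlier results of these data known.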

Additional observations from a re-analysis of the deposited data

Results flagged for a closer look

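*Plxna4* stood apart in 1 inverted mutant. Its log2 right over left was 0.0519 in embryo 10_3, where the nearest of the other 4 inverted mutants was at 0.571 and the highest at 0.692. Of 24 groups of 5 embryos checked in this way 1 stood out, and chance gives about 1 in 20.

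The asymmetry of *Sema3a* differed between inverted and rightward mutants by 0.808 on the log2 scale, which passed the test of the difference itself (adjusted p = 0.0257, edgeR).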

How the results depend on the processing

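Alternatives were run for the members called by edgeR or DESeq2 in a comparison, and the directions of those were kept in each. The other genes named with values, partners and markers included, were not run under them. In inverted mutants the count of members called between right and left was 4, and it was 1 in a fit of all libraries, 11 with DESeq2, 10 with no filter, 0 in males alone, 7 with newer edgeR dispersions and 1 to 6 with 1 embryo left out. For the difference of asymmetry between inverted and rightward mutants it was 1, against 4 with DESeq2, 3 with no filter, 0 in males alone, 2 with newer dispersions and 0 to 3 with 1 embryo left out. Without the replicate block it was 0, and *Sema3a* then differed by 0.79 (adjusted p = 0.166, edgeR), while the count between the sides of inverted mutants was 3. Between inverted mutants and wild types it was 0, against 2 with DESeq2, 1 with no filter, 1 with newer dispersions and 0 to 3 with 1 embryo left out. In the other 7 comparisons it was 0 under every alternative. The causes of these moves were not tested, beyond the smaller number of embryos in males alone and with 1 left out.

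Over all genes, 468 were called between the sides of inverted mutants, against 1755 with DESeq2, 942 with no filter, 141 in a fit of all libraries, 53 in males alone, 305 without the block and 138 to 446 with 1 embryo left out. The difference between inverted and rightward mutants called 82, against 456, 131, 7 in males alone and 17 without the block, in the same order, and 18 to 192 with 1 embryo left out, and that between inverted mutants and wild types 135, against 911, 207, 3 and 7, 212 with newer dispersions and 17 to 641 with 1 embryo left out. With DESeq2 the calls between sides were 20 against 0 in wild types and 32 against 6 in rightward mutants, where males alone and the fit without the block gave 1 each. In the 4 comparisons of levels the settings other than leaving out an embryo gave 0 to 20 where 6 were called, 0 to 8 where 3 were, 1 to 104 where 3 were and 0 to 18 where 2 were. Members with few counts, such as *Ntn5* and *Unc5d*, have wide errors at this depth.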
